A study of Mus musculus with 12 samples.

Results

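The livers of wild type mice given CDDO-Im were compared with those of wild type mice given vehicle, over every gene on the array. The members were the 6 wild type arrays of the 12 in the series, chosen by the genotype and compound in their labels: 3 with CDDO-Im and 3 with vehicle. All mice were male. They were dosed by gavage, with a CDDO-Im dose that the labels write as 30 uM/kg, and the label of every array gives a time of 6 hours. The other 6 arrays, 3 with vehicle and 3 with CDDO-Im from Nrf2 null mice under the same dose, route and time, entered the fit for its estimate of spread and served for 1 comparison of effects. Strain and age are not given in the sources used here. Whether each array stands for a separate animal is not stated, and the p-values then describe only how much these arrays vary, part of which may be technical. The titles of the vehicle arrays, unlike those of the CDDO-Im arrays, end in a bracketed number of unstated meaning, so anything it stands for is confounded with treatment.

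CDDO-Im is the imidazolide of a synthetic oleanane triterpenoid. Its class is known for reacting with cysteines of Keap1, the adaptor that sends the transcription factor Nrf2 (gene Nfe2l2) for degradation. Stabilised Nrf2 pairs with a small Maf protein and binds antioxidant response elements, and in liver it is known for switching on glutathione synthesis, conjugation, quinone reduction and NADPH supply. Liver is also the main source of plasma proteins, which are folded in the endoplasmic reticulum (ER) before secretion.

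Each value is a log2 intensity, so a difference of 1 means a doubling, and differences are given as CDDO-Im minus vehicle with the standard error (SE) of the fit. A gene was called higher or lower when its adjusted p in limma's moderated test was under 0.05. By this rule 332 of 18193 genes were called, 1.82% of those tested: 178 rose (0.978%) and 154 fell (0.846%). Of these, 78 rose and 51 fell at least 2-fold. The 3 arrays of each group did not overlap in any of the 332, and 16.6% of all genes were separated in this way, 8.42% with CDDO-Im above and 8.18% with CDDO-Im below. The median difference over all genes was 0.01. An unadjusted limma p under 0.05 was found for 2483 of the 18193 genes. Counts of this kind given below for single lists are to be read beside that share. The genes that rose furthest include many drug-metabolising enzymes, and those that fell furthest include acute phase, fatty acid binding and ER proteins. Other large rises were the noncoding transcript Hectd2os (2.40, adjusted p = 0.017) and Rgs16, a brake on G protein signalling (2.32, adjusted p = 0.0475). Both were lost without vehicle 1, vehicle 2 or CDDO-Im 2, and Rgs16 also without CDDO-Im 3.

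**Figure D1:**
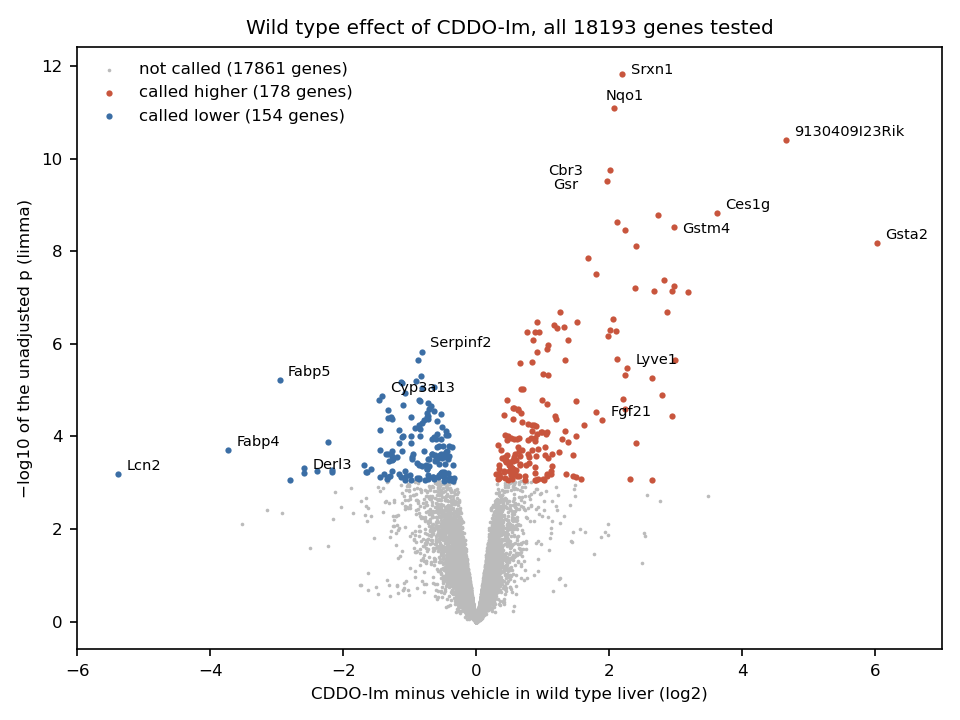
Difference between CDDO-Im and vehicle in wild type liver (x axis, log2) against the unadjusted limma p (y axis, −log10 scale) for each gene tested. The 178 genes called higher are red and the 154 called lower are blue; Srxn1 and Nqo1 have the smallest p-values and Gsta2 the largest rise, while Lcn2 has the largest fall.

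The third vehicle array stood apart from the other vehicle arrays. Whether its label is right could not be settled from these files, and a wrong label would change every difference given here. On the first principal component of the 6 arrays, which held 52.6% of their variance, vehicle 1 scored -36.3 and vehicle 2 scored -44.4. Vehicle 3 scored 8.24, nearer to the CDDO-Im arrays, which scored 19.7 to 27.8. Its mean correlation across genes was 0.986 with the other vehicle arrays and 0.989 with the CDDO-Im arrays. It also carried transcripts of pancreatic acinar cells: the median of 12 acinar genes was 10.6 there and 5.97 to 6.14 on the other 5 wild type arrays. Without vehicle 3, 1385 genes were called, 504 higher (2.77%) and 881 lower (4.84%), and 331 of the 332 genes were among them. In bulk liver, fewer cells of a type and less RNA per cell cannot be told apart. The 7 measured hepatocyte markers gave no call, 1 had an unadjusted limma p under 0.05, and albumin (Alb) read 14.28 ± 0.07 with vehicle and 14.32 ± 0.01 with CDDO-Im (SD, n = 3).

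The place of vehicle 3 between the groups differed from gene to gene. On a scale where 0 is the mean of vehicle 1 and 2 and 1 is the CDDO-Im mean, its median position was 0.25 over the 178 genes called higher and 0.44 over the 154 called lower. It lay under 0.25 for 88 of the genes that rose and over 0.5 for 67 of those that fell. These positions come from the arrays that gave the calls, and a call favours genes whose arrays agree within a group. The calls also changed when single arrays were left out. Of the 332 genes, 98 stayed called whichever wild type array was left out, 70 of them higher and 28 lower. The number called fell to 104 without vehicle 1, 117 without vehicle 2, 212 without CDDO-Im 1, 134 without CDDO-Im 2 and 156 without CDDO-Im 3. A gene is called robust to the arrays when its call held in all 6 of these fits. These fits take part of their spread from the Nrf2 null arrays. With the 6 wild type arrays alone 110 genes were called. Akr1c19, Etnppl, Gstp1, Pex11a, Apon, Bhmt, Fgg, C8b and Hyou1, robust by this rule, were then not called (limma adjusted p from 0.0524 to 0.095).

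**Figure D2:**
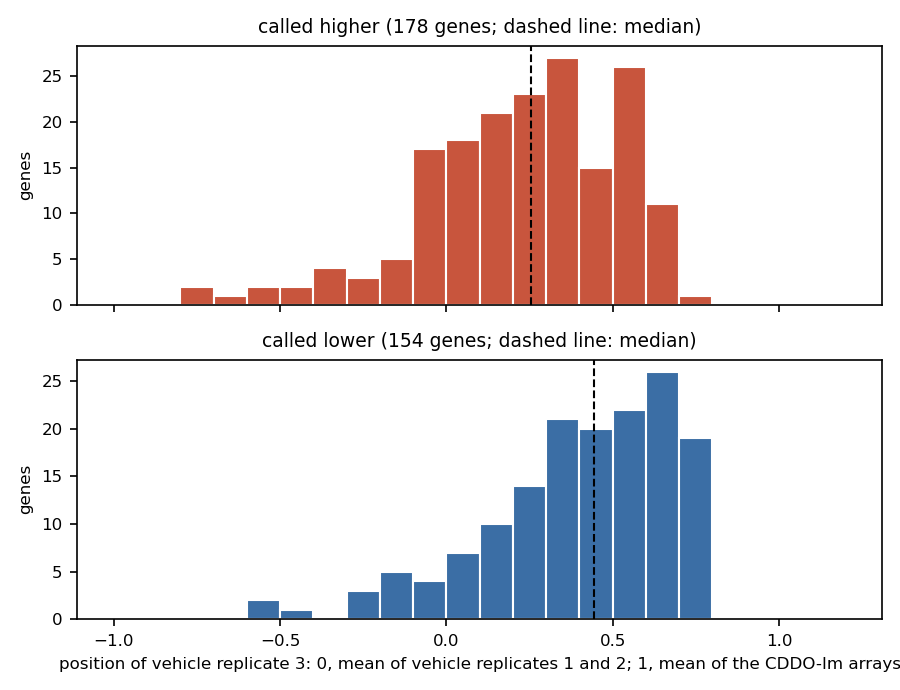
Number of genes (y axis) by the position of vehicle 3 between the mean of vehicle 1 and 2 (0) and the CDDO-Im mean (1), for genes called higher (top) and lower (bottom); values beyond the axis are drawn at its ends. The dashed medians lie at 0.25 and 0.44, so vehicle 3 sits further towards the CDDO-Im arrays among genes that fell than among genes that rose. Both medians are still nearer to the other vehicle arrays.

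The pathway's own regulators moved little. Nfe2l2 itself read 8.51, 8.60 and 8.69 with vehicle and 8.37, 9.14 and 8.67 with CDDO-Im, and its difference of 0.13 ± 0.17 (SE) had an adjusted p of 0.843. On the Nrf2 null arrays it read 4.44 to 4.96. Keap1 read 8.86, 8.70 and 8.67 with vehicle and 8.97, 9.09 and 8.94 with CDDO-Im. The Keap1 groups did not overlap, but the difference of 0.26 had an adjusted p of 0.164. Of 12 regulators measured, 2 rose and none fell: the small Maf partners Mafg (0.58, adjusted p = 0.0244) and Maff (0.52, adjusted p = 0.0367). Their median was 0.04. Mafg was lost when any of vehicle 1, vehicle 2, CDDO-Im 1 or CDDO-Im 2 was left out, and Maff also without CDDO-Im 3, with adjusted p up to 0.0984 and 0.184. Sqstm1, an autophagy adaptor that binds Keap1, had a difference of 0.15 (adjusted p = 0.569).

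Stretches of promoter from genes that rose are shown because they hold the core of the antioxidant response element, TGACNNNGC, searched on both strands in the 250 bases before and 50 after each start. The sequences come from RefSeq (GRCm38.p6), run 5′ to 3′ on the strand of the gene, and have the match in capitals. They lie at chr1:181051048-181051195 (plus strand) for 9130409I23Rik, chrX:164269187-164269255 (plus) for Pir, chr5:65435898-65436004 (minus) for Ugdh, chr3:122245393-122245461 (plus) for Gclm, chr10:82859084-82859152 (plus) for Txnrd1 and chr11:120633731-120633797 (minus) for Mafg. In 9130409I23Rik 3 matches lie close together, and Ugdh has 2.
9130409I23Rik: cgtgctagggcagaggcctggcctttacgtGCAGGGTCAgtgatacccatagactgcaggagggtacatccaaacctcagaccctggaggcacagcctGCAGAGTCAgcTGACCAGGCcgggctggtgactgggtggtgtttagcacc
Pir: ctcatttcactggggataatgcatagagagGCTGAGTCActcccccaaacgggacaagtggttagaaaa
Ugdh: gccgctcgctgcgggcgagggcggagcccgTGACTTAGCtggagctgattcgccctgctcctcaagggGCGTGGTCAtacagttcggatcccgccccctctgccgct
Gclm: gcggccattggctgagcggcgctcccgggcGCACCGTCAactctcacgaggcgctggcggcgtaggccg
Txnrd1: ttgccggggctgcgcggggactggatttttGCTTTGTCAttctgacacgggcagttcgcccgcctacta
Mafg: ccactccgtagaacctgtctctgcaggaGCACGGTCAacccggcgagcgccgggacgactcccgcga

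Of the 178 genes that rose, 142 had a promoter window and 42 of these (29.6%) held the core. The share was 25 of 128 (19.5%) among genes that fell and 2317 of 14368 (16.1%) among all genes tested. Counted by window, the share was 23.3% for genes that rose, 17.6% for genes that fell and 13.8% for all genes tested. It was 12.4% among all 32851 windows. The core is short, a match is a description of letters and not a site, and elements lying further from a start were outside the window. The dioxin response element core GCGTG, which the aryl hydrocarbon receptor binds, was in 54.2% of the genes that rose, 54.7% of those that fell and 47.9% of all genes.

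Several quinone and carbonyl reductases rose. Of 16 measured, 6 rose and none fell, all 16 differences were above 0, and the median was 0.65. Nqo1, which reduces quinones by transferring 2 electrons at once, read 5.12, 5.06 and 5.19 with vehicle and 7.15, 7.18 and 7.26 with CDDO-Im. The 3 vehicle values lay within a narrow band, vehicle 3 with the others, and the difference was 2.07 ± 0.08 (SE, adjusted p = 7.28e-08), or 4.21-fold. All 3 vehicle values lay below the median of every array. The carbonyl reductase Cbr3 read 5.53, 5.30 and 5.52 with vehicle and 7.53, 7.34 and 7.51 with CDDO-Im, a rise of 2.01 ± 0.10 (adjusted p = 8.15e-07). Its relative Cbr1 rose by 2.73 ± 0.17 (adjusted p = 4.37e-06).
The aldo-keto reductase Akr1c19 rose by 2.95 ± 0.46, but there vehicle 3 (9.46) lay well above vehicle 1 (7.40) and vehicle 2 (7.75), below all CDDO-Im values of 11.01 to 11.23. Akr1a1 rose by 0.66 and Akr1c13 by 0.73. Of these 6, Akr1c13 was the one that was not robust, with an adjusted p of up to 0.197 when vehicle 1, vehicle 2, CDDO-Im 2 or CDDO-Im 3 was left out. Pir, an iron-binding protein, read 6.33, 6.72 and 6.97 with vehicle and 9.17, 9.04 and 8.98 with CDDO-Im, a rise of 2.39 ± 0.20.

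Among the genes of glutathione supply 3 of 15 measured rose and none fell, with a median of 0.19. Gclc, the catalytic subunit of the ligase that makes the first and limiting step, read 9.13, 9.29 and 9.60 with vehicle and 12.16, 12.28 and 12.48 with CDDO-Im. This was a rise of 2.97 ± 0.25 (adjusted p = 6.52e-05), or 7.81-fold. Its modifier subunit Gclm rose by 0.94 ± 0.10 (adjusted p = 0.000309), or 1.92-fold, from 10.55 to 10.77 with vehicle to 11.50 to 11.64 with CDDO-Im. Gsr, which reduces oxidised glutathione with NADPH, read 9.60, 9.56 and 9.68 against 11.55, 11.60 and 11.58, a rise of 1.96 ± 0.10 (adjusted p = 1.10e-06). All 3 were robust to the arrays. Gss, the synthase of the second step, had a difference of 0.29 (adjusted p = 0.123) with groups that did not overlap. The cystine transporter Slc7a11 read 4.61 to 4.88 with vehicle and 4.61 to 4.75 with CDDO-Im, below the median of every array, and its difference of -0.05 had an adjusted p of 0.883. The gamma-glutamylcyclotransferase Ggct had a difference of -0.71 (adjusted p = 0.0576), and -0.87 without vehicle 3 (adjusted p = 0.0051).

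The glutathione S-transferases, which join glutathione to reactive compounds, held the largest rise of all. All 3 alpha class genes measured rose, with a median of 2.87. Gsta2 read 4.71, 4.49 and 6.25 with vehicle and 10.80, 11.38 and 11.31 with CDDO-Im. Vehicle 3 was the highest of its group, yet far below the CDDO-Im arrays, and the rise was 6.02 ± 0.41 (adjusted p = 1.11e-05), or 64.8-fold. Vehicle 1 and vehicle 2 lay below the median of every array, so the fold starts from low readings. Gsta4 rose by 2.87 ± 0.27 (adjusted p = 0.000171). Gsta3 read 8.43, 9.14 and 11.46 with vehicle and 12.16, 12.49 and 12.29 with CDDO-Im, so vehicle 3 lay near the treated arrays. Its rise of 2.64 ± 0.60 had an adjusted p of 0.0483, up to 0.214 when 1 of the other 5 wild type arrays was left out, and 4.6e-05 without vehicle 3.
In the mu class 5 of 7 rose with a median of 2.23, all robust to the arrays. Gstm4 read 7.89, 7.79 and 8.60 with vehicle and 11.27, 10.72 and 11.21 with CDDO-Im, a rise of 2.97 ± 0.19 (adjusted p = 6.06e-06). Gstm3 rose by 2.94, Gstm1 by 2.67, Gstm2 by 2.23 and Gstm6 by 2.10. Gstm7 had a difference of 0.43 (adjusted p = 0.424), and 0.74 without vehicle 3 (adjusted p = 0.0053). These genes lie beside each other and resemble each other in sequence, so probe sets may in part read a relative. Of 12 other transferases 3 rose: the abundant Gstp1 (12.71, 12.69 and 13.55 against 14.21, 14.13 and 14.13), Gsto1 by 1.38 and the microsomal Mgst3 by 1.29. Gstp1 rose by 1.18 ± 0.18 (adjusted p = 0.00734) and was robust to the arrays. Gsto1 and Mgst3 were lost without vehicle 1, vehicle 2, CDDO-Im 1 or CDDO-Im 2, with adjusted p up to 0.0961 and 0.0854.

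Within the thioredoxin system 4 of 18 genes rose and none fell. Srxn1, the sulfiredoxin that repairs over-oxidised peroxiredoxins, had the smallest p of all genes. It read 8.24, 8.20 and 8.18 with vehicle and 10.44, 10.37 and 10.39 with CDDO-Im, a rise of 2.19 ± 0.07 (adjusted p = 2.75e-08), or 4.57-fold. Thioredoxin reductase Txnrd1 read 10.03, 10.19 and 9.68 against 11.15, 11.25 and 11.11, a rise of 1.21 ± 0.12 (adjusted p = 0.000294). Its substrate thioredoxin, Txn1, rose by 0.84 ± 0.09. In Txnrd1 and Txn1 vehicle 3 lay below the other vehicle arrays, further from the CDDO-Im group. The peroxidase Gpx4 rose by 0.73 (adjusted p = 0.049) and lost its call without any of the other 5 wild type arrays (adjusted p up to 0.231). Catalase (Cat) had a difference of 0.52 (adjusted p = 0.159) and Sod2 of 0.20 (adjusted p = 0.223). The list median was 0.12.

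Transcripts of NADPH supply rose for 3 of 9 genes, all robust to the arrays, with none lower and a list median of 0.16. Pgd, a dehydrogenase of the pentose phosphate pathway, read 8.10, 8.24 and 8.09 with vehicle and 10.34, 10.17 and 10.28 with CDDO-Im. That was a rise of 2.12 ± 0.13 (adjusted p = 5.34e-06), or 4.34-fold. Transketolase (Tkt), of the same pathway, rose by 1.67 ± 0.12 and malic enzyme Me1 by 1.51 ± 0.15. Idh1 had a difference of 0.37 (adjusted p = 0.155).

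In heme and iron handling 3 of 14 genes rose, with a median of 0.20, and the best known of them was not called. Hmox1, the heme oxygenase, read 7.63, 7.70 and 7.48 with vehicle and 8.45, 8.24 and 7.87 with CDDO-Im. The groups did not overlap, but its difference of 0.58 ± 0.15 had an adjusted p of 0.0856, and of 0.1 without vehicle 3. Blvrb, which reduces biliverdin, read 10.18, 9.93 and 10.25 against 12.33, 12.26 and 12.49 and rose by 2.24 ± 0.15 (adjusted p = 6.27e-06). The transferrin receptor Tfrc rose by the same 2.24, with a wider SE of 0.34, and the ferritin heavy chain Fth1 by 0.42 (adjusted p = 0.00706). Fth1 was lost without vehicle 1 (adjusted p = 0.052). Of 7 metallothionein and zinc transporter genes limma called none, while 6 had an unadjusted p under 0.05. Mt2 read 13.71, 13.85 and 12.62 with vehicle and 11.63, 12.46 and 11.95 with CDDO-Im, and without vehicle 3 its difference was -1.77 (adjusted p = 0.0052).

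**Figure D3:**
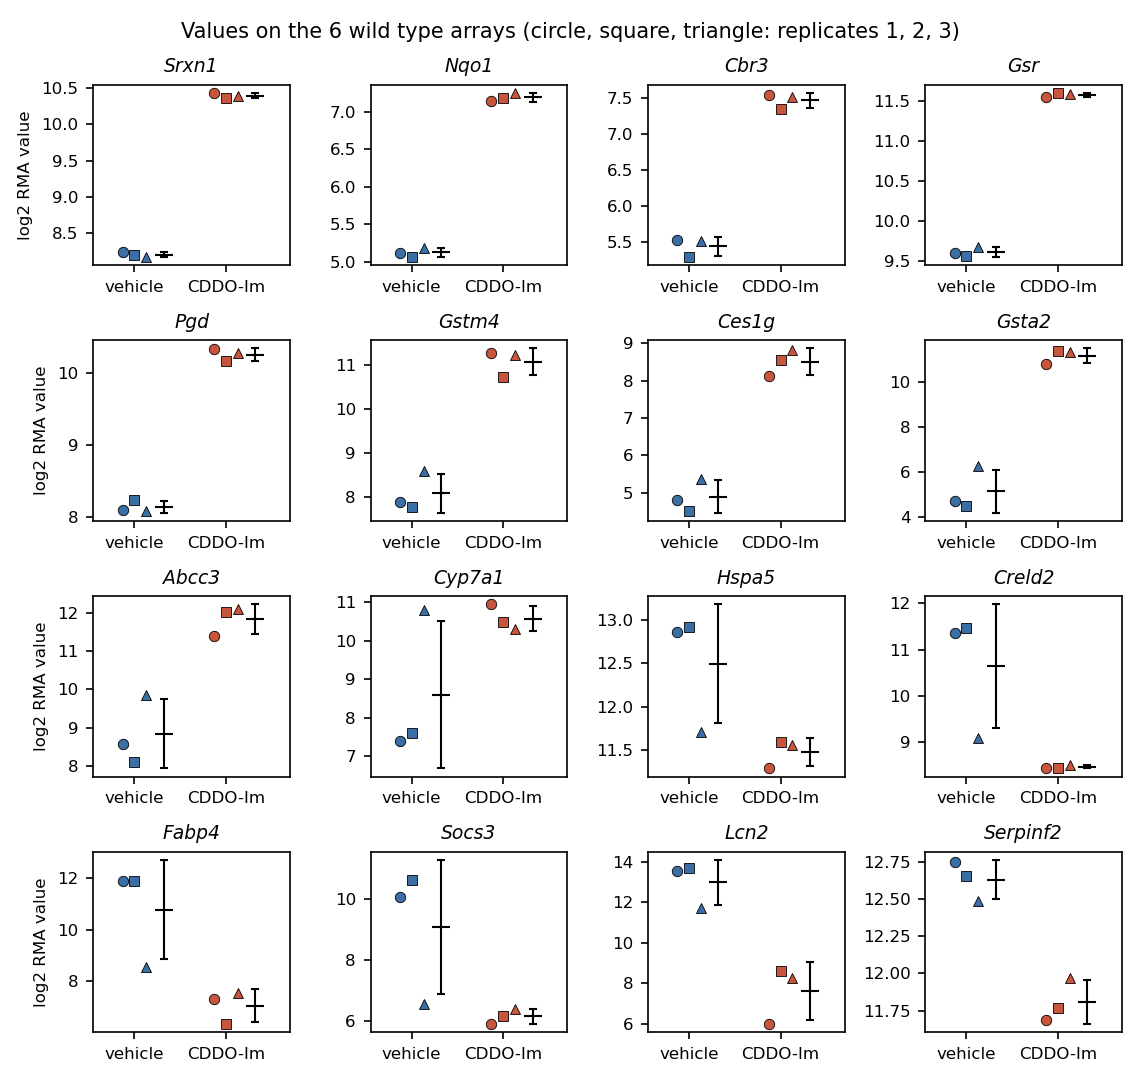
Log2 value (y axis) of 16 genes on the 3 vehicle (blue) and 3 CDDO-Im (red) arrays of wild type liver, with the mean and SD beside each group; axes differ between panels and do not start at 0. In Srxn1, Nqo1, Cbr3, Gsr and Pgd vehicle 3 (triangle) lies with the other vehicle arrays, whereas in Cyp7a1, Hspa5, Creld2, Fabp4 and Socs3 it lies nearer to the CDDO-Im arrays than to the other vehicle arrays.

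Genes of glucuronidation rose both among those that supply the sugar and among those that transfer it. Of 12 genes measured 9 rose and none fell, all 12 differences were above 0, and the median was 1.29. Ugp2 makes UDP-glucose and Ugdh oxidises it to UDP-glucuronate. Ugdh read 8.48, 8.48 and 9.47 with vehicle and 11.48, 11.66 and 11.77 with CDDO-Im, a rise of 2.83 ± 0.23 (adjusted p = 5.02e-05), and Ugp2 rose 2.84-fold (adjusted p = 0.0045). Among the transferases Ugt2b1 rose by 2.00, Ugt2b35 by 1.79 and Ugt2b5 by 1.08. Entpd5, an ER nucleotidase that clears the UDP left by sugar transfer, rose by 2.05 ± 0.20. These 6 were robust to the arrays and the other 3 were not.

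Hydrolases and oxidases of drugs and aldehydes gave a few large rises. The carboxylesterase Ces1g read 4.81, 4.51 and 5.36 with vehicle and 8.12, 8.56 and 8.83 with CDDO-Im, a rise of 3.61 ± 0.22 (adjusted p = 4.37e-06), or 12.2-fold. Its vehicle values all lay below the median of every array. Of 11 carboxylesterases Ces1g and Ces1c (0.97) were called, and the median was 0.49. Ces1c was lost without vehicle 1, vehicle 2, CDDO-Im 2 or CDDO-Im 3. Ces1f read 8.32, 7.87 and 11.31 with vehicle and 12.56 to 12.80 with CDDO-Im: its difference of 3.48 had an adjusted p of 0.0737, and without vehicle 3 it was 4.56 (adjusted p = 0.0017). Aldehyde oxidase Aox1 rose by 3.18 ± 0.27 (adjusted p = 6.72e-05) and the epoxide hydrolase Ephx1 by 2.63 ± 0.34. They were the 2 genes called among 18 of that list, both robust to the arrays, and its median was 0.26. Of 9 sulfotransferase genes none rose and 1 fell: Papss1, which makes the sulfate donor (-1.33, adjusted p = 0.0455, up to 0.206 without 1 of the other 5 arrays).

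Efflux pumps rose in 6 of 14 genes measured, with 1 lower and a median of 0.57. Abcc3, which exports conjugates across the basolateral membrane into blood, read 8.58, 8.10 and 9.86 with vehicle and 11.38, 12.02 and 12.09 with CDDO-Im. Its rise of 2.98 ± 0.35 (adjusted p = 0.000941) was the robust one of these 7 calls. The canalicular pumps Abcc2 (0.81) and Abcg2 (1.06), the basolateral Abcc4 (0.88), the porphyrin-linked Abcb6 (1.04) and the sterol half-transporter Abcg5 (0.53) were called higher with adjusted p from 0.0123 to 0.0429. Each of these 5 lost its call in 2 to 5 of the fits with 1 array left out: 6 of the 7 calls were lost without vehicle 1, 5 without each of vehicle 2, CDDO-Im 2 and CDDO-Im 3, and 3 without CDDO-Im 1. The gene that fell, seen after its value was known, was the cholesterol exporter Abca1 (-0.77, adjusted p = 0.049). Of 10 uptake transporters Slc22a30 was called (1.45, adjusted p = 0.0449, up to 0.21 without 1 of the other 5 arrays).

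Cytochrome P450 genes, which carry out the oxidations that often precede conjugation, moved in both directions. Cyp1a2 read 10.65, 10.32 and 11.10 with vehicle and 13.09 ± 0.12 (SD, n = 3) with CDDO-Im, a rise of 2.40 ± 0.17 (adjusted p = 1.18e-05) that was robust to the arrays. Its neighbour Cyp1a1, a sensitive target of the aryl hydrocarbon receptor, read 6.49 to 6.53 against 7.11, 6.78 and 6.97. The groups did not overlap, and the difference of 0.45 ± 0.11 had an adjusted p of 0.0636. The receptor Ahr had 0.45 (adjusted p = 0.22) and Cyp1b1 0.18 (adjusted p = 0.394). Of 42 genes in families 2, 3 and 4 and their reductases 3 rose and 1 fell, with a median of 0.18. Cyp2c29 rose by 1.45, Cyp3a25 by 1.03 and Cyp2c38 2.83-fold, all 3 lost without vehicle 1, vehicle 2, CDDO-Im 2 or CDDO-Im 3, and Cyp2c29 also without CDDO-Im 1. Cyp3a13 read 11.89, 11.82 and 11.27 with vehicle and 10.13, 10.39 and 10.17 with CDDO-Im, and fell by 1.43 ± 0.20 (adjusted p = 0.00395), robust to the arrays.

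The calls of both main bile acid hydroxylases turned on vehicle 3. Cyp7a1, the rate-limiting enzyme of bile acid synthesis, read 7.39 and 7.59 on vehicle 1 and 2, 10.80 on vehicle 3, and 10.94, 10.47 and 10.30 with CDDO-Im. The groups overlapped, and the difference of 1.97 ± 0.68 had an adjusted p of 0.196. Without vehicle 3 it was 3.08 (adjusted p = 1.9e-05). The hydroxylase Cyp8b1, which sets the balance of bile acids, read 8.92 and 8.25 on vehicle 1 and 2, 12.49 on vehicle 3, and 12.06 to 12.68 with CDDO-Im. Of 17 genes in the list Cyp27a1 was called (1.05, adjusted p = 0.0132), and was lost without vehicle 1, vehicle 2 or CDDO-Im 2. The zinc enzyme carbonic anhydrase Car3 read 7.63, 6.99 and 12.94 with vehicle, vehicle 3 above the 11.32 to 11.86 of the CDDO-Im arrays.

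Lists of lipid and energy metabolism gave from 0 to 4 calls each, beside 1.82% of all genes called. Fgf21, a liver hormone of fasting and stress, read 8.11, 8.01 and 7.93 with vehicle and 9.23, 10.31 and 10.20 with CDDO-Im. Its rise of 1.89 ± 0.30 (adjusted p = 0.00813) was robust to the arrays, and it was the 1 gene called among 20 secreted liver factors and among 29 genes of the ATF4 stress response. Pex11a, a peroxisome division factor, rose by 1.19 ± 0.19 and was the 1 call among 29 genes of fatty acid oxidation, whose median was 0.17. In that list 8 genes had an unadjusted limma p under 0.05, all with CDDO-Im higher, and 6 were called higher without vehicle 3. The lipin Lpin2 rose by 0.89, and was lost without vehicle 1, vehicle 2 or CDDO-Im 2. Of 35 genes of the urea cycle and amino acid breakdown 2 rose and 2 fell, with a median of -0.01. Csad, which makes the taurine precursor, rose by 2.20 ± 0.31, and the tryptophan oxygenase Tdo2 by 0.56. The betaine enzyme Bhmt read 13.18, 13.14 and 13.64 against 12.14, 12.04 and 12.54 and fell by 1.08 ± 0.15 (adjusted p = 0.0034), with vehicle 3 the furthest from the CDDO-Im arrays. Kmo, of tryptophan breakdown like Tdo2, fell by 0.84. Csad and Bhmt were robust to the arrays, and Tdo2 and Kmo were lost without vehicle 1, vehicle 2 or CDDO-Im 2, and Tdo2 also without CDDO-Im 1 or CDDO-Im 3. Etnppl, which degrades phosphoethanolamine and was among the largest rises, rose by 2.79 ± 0.39.
Limma called none of 20 cholesterol synthesis genes, 3 of which had an unadjusted p under 0.05, and none of 23 genes of glucose metabolism, 11 of which did. With every probe set tested apart 1 of the latter, Pfkfb3, was called. Of 20 apolipoprotein genes 3 fell, Apon by 0.73, Apoc2 by 0.71 and Apof by 0.42, and none rose. Apof was lost without vehicle 1, vehicle 2, CDDO-Im 2 or CDDO-Im 3. The hepatocyte factor Foxa3 read 9.72, 9.63 and 9.71 against 9.02, 8.99 and 8.81. It fell by 0.75 ± 0.12 (adjusted p = 0.0067), the 1 call among 24 liver transcription factors.

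Fatty acid binding proteins Fabp4 and Fabp5, lipid carriers best known from fat cells, macrophages and skin, were among the largest falls. Fabp5 read 12.96, 12.99 and 11.33 with vehicle and 9.64, 9.78 and 8.99 with CDDO-Im, a fall of 2.96 ± 0.38 on the log2 scale (adjusted p = 0.0021) that was robust to the arrays. Fabp4 read 11.91, 11.88 and 8.55 against 7.29, 6.33 and 7.53, with vehicle 3 far below the other vehicle arrays. It fell by 3.73 ± 0.70 (adjusted p = 0.0217), and was lost without any 1 of the other 5 wild type arrays (adjusted p up to 0.113). None of 7 adipocyte markers and none of 15 Kupffer cell and macrophage markers was called by limma, and 1 of each had an unadjusted p under 0.05. The log2 of the summed macrophage markers was 13.52, 13.08 and 12.73 with vehicle and 13.35, 13.48 and 12.99 with CDDO-Im. That of the adipocyte markers was 9.61, 9.45 and 13.06 against 11.65, 12.02 and 12.05. Car3, which is on the adipocyte list and abundant in liver, was, like the sum, lowest on vehicle 2 and highest on vehicle 3. The fat cell hormone Adipoq read 4.17, 4.12 and 5.30 with vehicle and 4.92, 4.05 and 5.16 with CDDO-Im, groups that overlapped. The part of other cells in the Fabp4 and Fabp5 results was not tested.

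Some acute phase proteins, which liver secretes in inflammation, were lower. Of 27 measured 10 fell and none rose, 24 had groups that did not overlap with CDDO-Im below, and the median was -1.16. Lcn2, the iron-siderophore binding lipocalin, read 13.57, 13.70 and 11.73 with vehicle and 5.98, 8.62 and 8.24 with CDDO-Im, the largest fall of all genes at -5.38 ± 1.17 (adjusted p = 0.0429). The lipopolysaccharide binding protein Lbp read 11.56, 11.49 and 11.02 against 10.26, 9.94 and 10.06, a fall of 1.27 ± 0.20. Fibrinogen gamma (Fgg) read 13.98, 13.99 and 13.76 against 13.29, 13.42 and 13.41, a fall of 0.54 ± 0.08 (adjusted p = 0.00678). The beta chain Fgb fell by 0.67, the inter-alpha-inhibitor heavy chains Itih3 by 0.78 and Itih4 by 0.82, haptoglobin (Hp) by 0.46 and Saa3 by 2.17.
Saa1 was not called: it read 13.91, 14.01 and 13.46 with vehicle, and 8.88 on CDDO-Im 1 against 12.75 and 13.05 on the other 2, a difference of -2.24 (adjusted p = 0.258). Fgg was the 1 acute phase call robust to the arrays, and was lost with the 6 wild type arrays alone (adjusted p = 0.0608). Of the 10 calls 9 were lost without vehicle 1, 7 without vehicle 2, 6 without CDDO-Im 1, 5 without CDDO-Im 2 and 4 without CDDO-Im 3. Lcn2 and Saa3 were among those lost in each of these, with adjusted p up to 0.19 and 0.193. Without vehicle 3, 24 of the 27 were called lower, and the median was -1.43.

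Signalling genes upstream of the acute phase were mostly not called with vehicle 3 included. Socs3, a feedback inhibitor induced by Stat3, read 10.07, 10.59 and 6.56 with vehicle and 5.88, 6.15 and 6.39 with CDDO-Im. Vehicle 3 lay just above the CDDO-Im range, and the difference of -2.93 ± 0.84 had an adjusted p of 0.112. Without vehicle 3 it was -4.19 (adjusted p = 0.00016). Of 24 genes of this signalling list Il6st, the shared receptor of the interleukin 6 family, was called (-1.31 ± 0.26, adjusted p = 0.0282, up to 0.154 without 1 of the other 5 arrays), and 10 fell without vehicle 3. Of 23 NF-kB genes 1 was called: Ikbkg, the regulatory subunit of the IkB kinase, rose by 0.68 ± 0.10 (adjusted p = 0.0067) and was robust to the arrays. Limma called none of 21 chemokines, with 6 at an unadjusted p under 0.05. This rests on the probe set chosen: with every probe set tested apart 1 chemokine was called, Cxcl1, whose other probe sets fell by 1.85 (adjusted p = 0.049) and 3.07 (adjusted p = 0.0255).

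Complement and clotting factors were lower in part. Of 35 measured 8 fell and none rose, with a median of -0.21. Serpinf2, the inhibitor of plasmin, read 12.75, 12.65 and 12.49 with vehicle and 11.69, 11.77 and 11.97 with CDDO-Im, a fall of 0.82 ± 0.09 (adjusted p = 0.00067). C8a, a chain of the membrane attack complex, read 12.42, 12.47 and 12.32 against 11.59, 11.54 and 11.60, a fall of 0.83 ± 0.11 (adjusted p = 0.00175), and its partner chain C8b fell by 0.91 ± 0.12. The regulator C4bp fell by 0.68 ± 0.10. These 4 were robust to the arrays. Cfb (-0.53) and F11 (-0.67) each lost the call in 4 of the fits with 1 array left out, with adjusted p up to 0.0866 and 0.126: of the 8 calls 4 were lost without each of vehicle 1, vehicle 2, CDDO-Im 1 and CDDO-Im 3, and 1 without CDDO-Im 2. Of 16 other hepatocyte plasma proteins limma called none, with 8 at an unadjusted p under 0.05.

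ER chaperones and folding enzymes were the largest group of lower genes. Of 31 measured 12 fell and none rose, and the median was -0.68. Promoter stretches from members that fell are shown because they hold the ER stress response element in its full consensus, to which the sensor Atf6 binds with NF-Y. The capitals mark the match on either strand, in sequences from RefSeq (GRCm38.p6), 5′ to 3′ on the strand of the gene. They lie at chr15:88819490-88819568 (plus strand) for Creld2, chr10:75893212-75893290 (plus) for Derl3 and chr12:17266461-17266539 (plus) for Pdia6.
Creld2: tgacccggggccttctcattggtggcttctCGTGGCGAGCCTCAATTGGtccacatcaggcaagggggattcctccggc
Derl3: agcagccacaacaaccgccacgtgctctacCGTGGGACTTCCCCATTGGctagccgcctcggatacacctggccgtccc
Pdia6: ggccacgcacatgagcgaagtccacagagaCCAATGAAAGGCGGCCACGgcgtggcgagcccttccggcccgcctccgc

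The element was in 7 of the 128 genes that fell and had a window (5.47%), in 0 of 142 that rose and in 20 of 14368 tested (0.139%). The stretch shown for Creld2 was also counted for Alg12, which fell, lies on the opposite strand and was named after its value was seen. That site therefore entered the counts for both genes. In the ER chaperone list the element was in 10 of 26 (38.5%). Over all 32851 windows 39 held it (0.119%). These genes are known for carrying it, and the match says nothing of what bound there.

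Creld2, a chaperone-like secreted protein, read 11.35, 11.48 and 9.10 with vehicle and 8.45, 8.44 and 8.50 with CDDO-Im, a fall of 2.18 ± 0.46 (adjusted p = 0.0382). Vehicle 3 lay nearer to the CDDO-Im arrays, and without it the fall was 2.95 (adjusted p = 8.9e-08). Derl3, a channel component for discarding misfolded proteins, read 11.06, 10.72 and 8.17 against 7.49, 7.29 and 7.40 and fell by 2.59 ± 0.56. Sdf2l1 fell by 2.23, Manf by 1.65, the co-chaperone Dnajb11 by 1.59, the disulfide isomerases Pdia6 by 1.46, Pdia4 by 1.27 and Pdia3 by 1.10, and the chaperone Hyou1 by 1.33.
The master chaperone Hspa5 (BiP) was not called: it read 12.86, 12.92 and 11.71 with vehicle and 11.29, 11.59 and 11.56 with CDDO-Im, a difference of -1.02 (adjusted p = 0.0637). Without vehicle 3 it was -1.41 (adjusted p = 9.6e-06). Vehicle 3 lay over 0.5 on the position scale in all 12 called chaperones, with a median of 0.68. Hyou1 was the 1 call robust to the arrays, and was lost with the 6 wild type arrays alone (adjusted p = 0.095). The other 11 were lost without vehicle 1, without vehicle 2, without CDDO-Im 2 and without CDDO-Im 3, and 8 of them without CDDO-Im 1. Without vehicle 3, 27 of the 31 were called lower, with a median of -0.98.

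Some of the machinery that works beside the chaperones was lower. Of 43 genes of ER translocation and secretory transport 5 fell and none rose, with a median of -0.44, and 31 had a difference below 0 with an unadjusted p under 0.05. Translocon subunits Sec61b (11.57, 11.61 and 10.39 against 10.16, 9.91 and 9.70) and Sec61a1 fell by 1.27 and 1.07. The oligosaccharyltransferase subunits Rpn1 and Ddost fell by 1.33 and 1.19, and the signal peptidase subunit Sec11c by 1.45. No call of the 5 was robust: all were lost without vehicle 1, vehicle 2 or CDDO-Im 3, 4 without CDDO-Im 2 and 2 without CDDO-Im 1. Without vehicle 3, 33 of the 43 were called lower.
Other large falls read the same way on the arrays. The calcium-binding Nucb2 read 8.17, 8.30 and 5.69 against a mean of 4.99 ± 0.03 (SD, n = 3) and fell by 2.40, and the magnesium transporter Slc41a2 fell by 2.81. The ascorbate-linked cytochrome Cyb561 fell by 2.59, the transcription factor subunit Gtf2a2 by 1.66, the integrin activator Fermt2 by 1.45 and the nucleotide sugar carrier Slc35b1 by 1.39. Each of these 6 was lost without any 1 of the other 5 wild type arrays, with adjusted p up to 0.227. Antxr2, a receptor for collagen fragments, read 8.65, 8.43 and 8.23 against 7.39, 6.73 and 6.81, and its fall of 1.46 ± 0.21 was robust to the arrays.

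**Figure D4:**
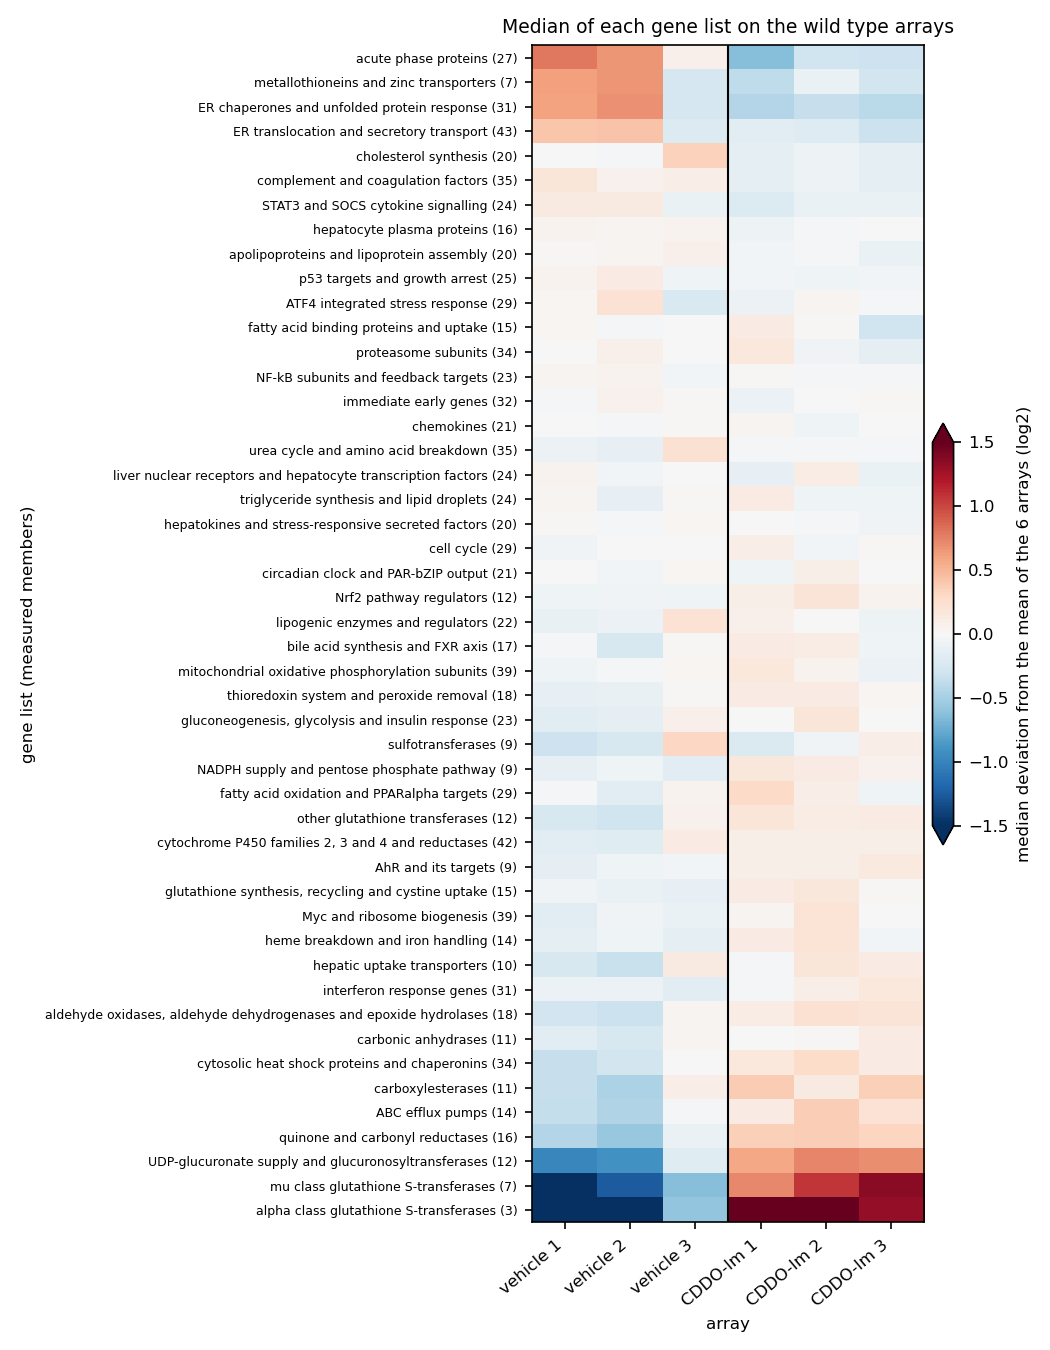
Median deviation of each gene list (y axis, with the number of measured members) from the mean of the 6 wild type arrays (columns), in log2; red is above and blue below that mean, and colours saturate at 1.5. Alpha and mu class transferases are low on all vehicle arrays and high on all CDDO-Im arrays, while the 2 ER lists and the metallothionein list are above the mean on vehicle 1 and 2 and below it on vehicle 3.

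Some cytosolic chaperones were higher. Of 34 heat shock proteins and chaperonins 6 rose and none fell, and the median was 0.42. Hsph1, a partner of Hsp70, read 7.50, 8.23 and 9.05 with vehicle and 9.31, 10.13 and 10.05 with CDDO-Im and rose by 1.57 ± 0.35 (adjusted p = 0.0474). Chordc1 rose by 0.98, Dnajb1 by 0.83, Stip1 by 0.78, the chaperonin subunit Cct6a by 0.64 and St13 by 0.53. None was robust: all 6 were lost without vehicle 1, 5 without each of vehicle 2 and CDDO-Im 2, 4 without CDDO-Im 3 and 2 without CDDO-Im 1. Without vehicle 3, 20 of the 34 were called higher.

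Growth and immediate early genes gave calls that were not robust to the arrays. Myc read 6.25, 6.14 and 7.02 against 7.58, 7.59 and 7.66 and rose by 1.14 (adjusted p = 0.0244), and the nucleolar methyltransferase Fbl and the ribosome assembly factor Wdr12 rose by 0.42 and 0.45. Heatr1, of the same list of 39, fell by 0.73. The list median was 0.19, 32 differences were above 0, and 17 genes had an unadjusted limma p under 0.05, 16 of them higher. With the mean of their probe sets Heatr1 had a difference of -0.11 (adjusted p = 0.602) and Wdr12 of 0.10 (adjusted p = 0.585), and neither was called. Egr1 fell by 1.69 and Fos by 0.56. The cyclin Ccnd1 rose by 0.47 (adjusted p = 0.0137), the 1 call among 29 cell cycle genes. The interferon-induced Bst2 and Ifi27 rose by 0.65 and 0.88, the 2 calls among 31, where 14 genes had CDDO-Im above vehicle without overlap. None of these 9 was robust: Ccnd1 was lost without vehicle 1 or CDDO-Im 2, and the others without vehicle 1, without vehicle 2 and without further arrays (adjusted p up to 0.21). Of 34 proteasome subunits Psmd5 was called (0.50, adjusted p = 0.0298, not robust to the loss of any 1 of the other 5 arrays), and the median was -0.05. Limma called none of 25 p53 targets, 39 oxidative phosphorylation subunits or 21 clock genes, with 3, 3 and 1 at an unadjusted p under 0.05. Over all 18193 genes 2483 had such a p. With every probe set tested apart the p53 target Gadd45b was called.

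Among markers of other liver cells 2 were called, both from the sinusoidal endothelial list. Lyve1, a hyaluronan receptor, read 4.54, 5.03 and 4.90 with vehicle and 6.89, 6.72 and 7.65 with CDDO-Im, a rise of 2.26 ± 0.28 (adjusted p = 0.0013) that was robust to the arrays. Oit3 rose by 0.51 ± 0.11 (adjusted p = 0.0332) and was lost without any 1 of the other 5 wild type arrays. The 15 genes of that list did not move together: 5 differences were above 0, the median was -0.15, and the scavenger receptor Stab2 had -0.43 (adjusted p = 0.102). The log2 of their summed level was 12.75, 12.62 and 12.27 with vehicle and 12.26 to 12.37 with CDDO-Im. Their part in the Lyve1 result was not tested. None of the 12 acinar, 12 stellate, 9 lymphocyte, 7 neutrophil, 7 cholangiocyte or 4 erythroid markers was called, with 0, 2, 0, 2, 0 and 0 at an unadjusted limma p under 0.05.

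The effect in wild type was set against that in Nrf2 null mice by the interaction, the wild type difference minus the null difference. It was called for 25 genes (0.137%), 23 of them with the wild type effect more positive (0.126%) and 2 with it more negative (0.011%). In 22 of these the gene rose in wild type, and in 1 it fell. Srxn1 rose by 2.19 in wild type and fell by 0.62 in null livers, an interaction of 2.81 ± 0.10 (SE, adjusted p = 8.7e-08). Nqo1 had 2.07 in wild type and 0.04 in null (interaction adjusted p = 5.04e-06), Cbr3 2.01 and 0.07, Gsr 1.96 and 0.17, and Pgd 2.12 and -0.38. The uncharacterised gene 9130409I23Rik read 3.54, 3.70 and 4.11 with vehicle and 7.98, 8.60 and 8.74 with CDDO-Im in wild type, a rise of 4.66 ± 0.20. Its null difference was 0.70. The transferases Gstm4 and Gstm3 had 2.97 and 2.94 against 0.22 and 0.23.
On the position scale vehicle 3 lay under 0.25 for 21 of the 22 genes that rose, with a median of 0.08. This position is read from the arrays that gave the calls. An interaction call favours a small spread within groups, so the low positions are in part fixed by the selection. For 15 of the 25 genes the interaction held whichever of the 12 arrays was left out. It was lost in at least 1 of these fits for Ugdh, Tkt, Sc5d and 7 genes named here after their values were seen: Osgin1, Slc48a1, Arpp19, Cds2, Cdc34, Dcaf12 and Lgr4. The smallest of these highest p-values was 0.0853, for Osgin1. Those 7 genes had wild type differences of 1.07, 1.37, 1.08, 1.06, 0.70, 0.76 and -0.36, and each was called in wild type. Of the 25 genes 13 had other probe sets. In 7 another probe set was called in the interaction the same way, and in 0 the opposite way. Of the 23 with a more positive effect, 21 had a promoter window and 7 of these (33.3%) held TGACNNNGC.

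**Figure D5:**
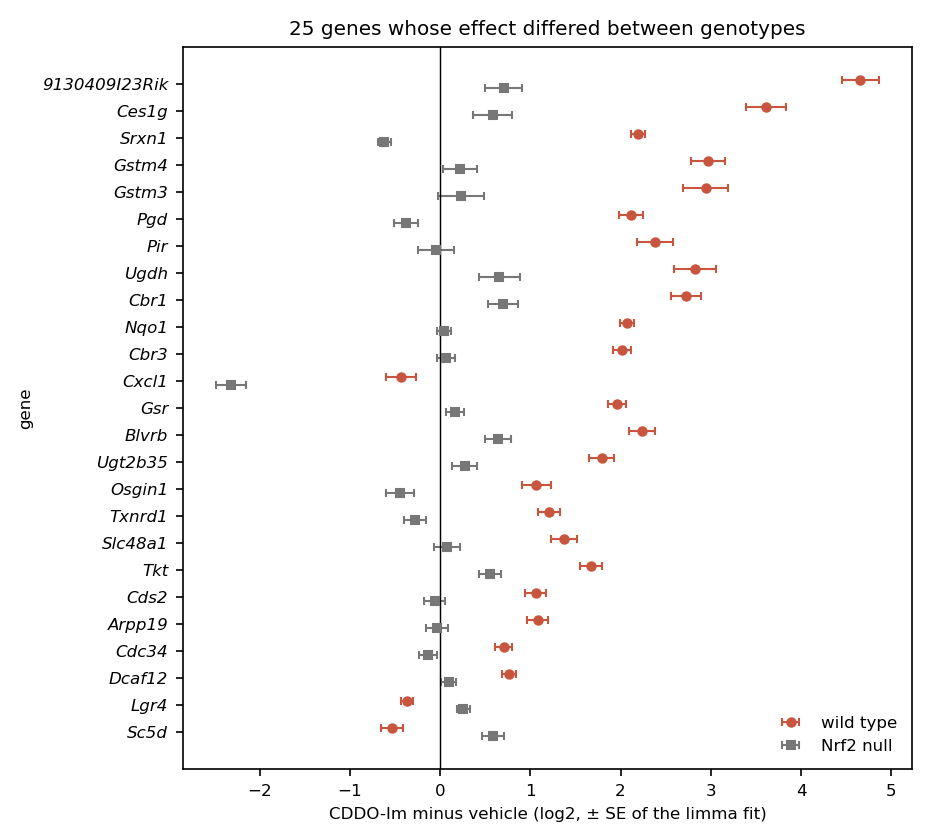
Difference between CDDO-Im and vehicle (x axis, log2, with the SE of the fit) in wild type (red) and Nrf2 null liver (grey) for the 25 genes called in the interaction. In 22 of them the wild type effect is a called rise; for Cxcl1 the null effect is a fall of 2.31 and the wild type difference is -0.43 on the probe set drawn, while both its other probe sets were called lower in each genotype.

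Other genes with large wild type effects were not called in the interaction, which does not show that their effects were equal. Gsta2 had 6.02 in wild type and 3.31 in null livers, an interaction of 2.71 ± 0.59 (adjusted p = 0.179), and Gclc had 2.97 and 1.23 (adjusted p = 0.155). Among genes that fell, Creld2 had -2.18 and -2.37, Sdf2l1 -2.23 and -2.86 and Lbp -1.27 and -1.14, with interaction adjusted p of 0.894 or more. In all, 72 genes called higher and 76 called lower in wild type were called in the same direction in the null comparison, and 2 in the opposite direction. Over all 18193 genes the null comparison called 652 higher and 422 lower. The comparisons use different arrays but 1 shared estimate of spread.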

How the data were processed

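Mouse liver RNA was measured on 12 one-colour arrays, and 6 of these, the wild type arrays, carried the comparison. The authors deposited log2 intensities per probe set, which the submitters' processing notes say came from RMA, with version and background settings not given in the sources used here; RMA normalises the arrays to a shared distribution, so a change of most genes 1 way would be reduced. The deposited file held 45101 probe sets: 64 controls, 34945 naming 1 gene, 932 several and 9160 none. Array medians ran from 5.77 to 5.83. The number of arrays limits the precision.

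Each gene was represented by 1 probe set, the brightest on average across the 12 arrays among those naming no other gene, which gave 18193 genes, with names updated through RefSeq's GRCm38.p6 table (34741 probe sets matched). No low-signal filter was applied. Wild type vehicle values of Nqo1, Cbr3, Ces1g, Lyve1 and 9130409I23Rik, among others, lay below the median of every array. Of 50 named and called genes with several probe sets, all probe sets moved in 1 direction in 44, and in 0 was another probe set called the opposite way. Group means were estimated together from the 12 arrays in R 4.3.3 by limma 3.58.1 (two-sided moderated test, 8 residual and 3.81 prior degrees of freedom), with Benjamini-Hochberg adjustment over 18193 genes and calls at 0.05. The script was tested on simulated data.

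The members, the 48 gene lists and 10 marker lists (1031 of 1122 pathway entries measured) and the tests were chosen with earlier results of these data known. Named genes were the 20 largest rises and falls that were called with groups not overlapping (clone names left out), the 6 members of each list with the smallest adjusted p, called cell type markers, a fixed set of well-known genes and the 10 smallest interaction p-values; other marker genes named as background to a list were chosen after their values were seen. Alternatives left out each array, both arrays with acinar transcripts and dim genes, and changed weights, normalization, probe set choice, prior, samples and threshold; reading the interaction and the lists with every probe set was added after seeing the data. Same-numbered arrays of the 2 groups were not treated as paired.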

Additional observations from a re-analysis of the deposited data

Results flagged for a closer look

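The effect of CDDO-Im differed between wild type and Nrf2 null livers, by the interaction term in limma, for 18 of the genes that could be named. The wild type effect minus the null effect was 2.81 for Srxn1, 2.03 for Nqo1, 3.95 for 9130409I23Rik, 1.95 for Cbr3, 2.50 for Pgd and 1.80 for Gsr. It was 2.75 for Gstm4, 2.71 for Gstm3, 3.03 for Ces1g, 2.03 for Cbr1, 2.43 for Pir and 1.48 for Txnrd1. For Blvrb it was 1.60, for Ugt2b35 1.52, for Ugdh 2.17 and for Tkt 1.12.

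Cxcl1, a neutrophil-attracting chemokine, had an interaction of 1.88 ± 0.24 (SE, adjusted p = 0.00715, limma) with no call in wild type. It read 9.73, 9.59 and 9.14 with vehicle and 8.97 to 9.19 with CDDO-Im in wild type, and fell by 2.31 in null livers. The interaction rests on this probe set. In its other probe sets, read apart, Cxcl1 fell in wild type by 1.85 (adjusted p = 0.049) and 3.07 (adjusted p = 0.0255) and in null livers by 3.42 and 4.66, with interactions of 1.57 and 1.59 that were not called (adjusted p = 0.646 and 0.821). Sc5d, an enzyme of cholesterol synthesis, had an interaction of -1.12 (adjusted p = 0.0284), with -0.53 in wild type (adjusted p = 0.0535) and a rise of 0.59 in null livers. Its other probe sets gave interactions of -1.13 and -0.09 that were not called (adjusted p = 0.298 and 0.96).

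Probe sets outside the gene comparison also gave calls in wild type when tested apart. Of 932 probe sets naming several genes 21 were called, 14 higher and 7 lower, and the largest rise was 6.44. Of 9160 naming no gene 20 were called, 13 higher and 7 lower.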

How the results depend on the processing

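Among 6224 alternative values for 297 named genes 0 reversed, 5370 kept their side of the threshold, 531 lost the call and 323 gained it. A value counted as reversed only when its sign changed and the gene was called in at least 1 of the 2 fits. Sign changes of genes called in neither fit were counted with the 5370. Of 464 alternative list medians 432 moved by less than 1 SD between arrays and 32 by more. That SD included vehicle 3, so in lists where vehicle 3 lay apart it widened the measure of its own removal. With 1 array left out the number of genes called in wild type (332) ran from 104 to 1385, and of interaction calls (25) from 15 to 46, both highest without wild type vehicle replicate 3. Leaving out both arrays with acinar transcripts gave 1293 and 39, and array weights gave 2023 and 89. Every single-gene probe set tested apart gave 545 calls, over more features. Fewer genes were called with the 6 wild type arrays alone (110, with fewer arrays), at an adjusted p under 0.01 (109), and for a change of at least 1.5-fold (36, of which 35 higher). The share of calls that were higher was 53.6% as reported, 36.4% without vehicle replicate 3, 35.8% without both acinar arrays, 40.3% with array weights and 71.8% with the 6 arrays alone. With the mean of a gene's probe sets 8 of the 128 named calls were lost, those of Rgs16, Slc41a2, Mafg, Il6st, Sec61a1, Dnajb1, Wdr12 and Heatr1. The difference was smaller by over 1.5 times for 14, among them Fabp4 (-1.77), Lyve1 (1.42), Tfrc (1.31), Etnppl (1.65) and Pdia6 (-0.75). Replicate numbers were not used to pair the samples. Same-numbered vehicle and CDDO-Im arrays had deviations from their group means that correlated at -0.0076, 0.246 and 0.194. Vehicle 2 and 3 correlated best with their own number, and vehicle 1 with CDDO-Im 2 (0.119). With so few arrays a group these values cannot decide whether the numbers mark pairs. With the replicate block 323 genes were called, 277 of them among the 332, with 20 interaction calls. Where no cause is named, the cause was not tested. The number of arrays limits what small changes can be seen.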
